A study of Mus musculus with 4 samples.

Results

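The Hox genes of the 4 mouse clusters were examined in open chromatin of day 4 embryoid bodies, in wild-type (WT) cells and in cells whose chromatin protein CTCF carries an arginine in place of lysine 20 (CTCF-K20R). The members were 38 Hox genes, taken by name, of 21884 protein-coding genes: 10 of HoxA, 10 of HoxB, 9 of HoxC and 9 of HoxD. Around them, 4 windows were read, each from 50 kb before the first to 50 kb after the last of these genes: chr6:52112417-52310880 for HoxA, chr11:96144316-96418256 for HoxB, chr15:102871103-103086852 for HoxC and chr2:74618310-74815142 for HoxD (mm10). The windows held 166 of the 80380 regions that the 4 peak lists make when merged.

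The data are ATAC-seq peak lists, in which a transposase has cut accessible DNA and the places of dense cutting were called as peaks. Each genotype had 2 libraries, made from embryoid bodies, which are aggregates that differentiating embryonic stem cells form in hanging drops. Both genotypes derive from the E14Tg2A line, were kept on mitomycin C-inactivated mouse embryo fibroblasts with leukemia inhibitory factor and 2 inhibitors (CHIR99021 and PD0325901), and were then differentiated in serum without that factor. The K20R change was made by CRISPR/Cas9, and how many targeted colonies stand behind the 2 K20R libraries is not given in the sources used here.

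Hox genes encode homeodomain transcription factors that give cells their position along the body axis. They lie in clusters in the order in which they are used, from anterior genes (paralog groups 1 to 3) through central genes (4 to 8) to posterior genes (9 to 13), and in the embryo they are switched on in that order from the end of gastrulation. In stem cells the clusters are held silent by Polycomb proteins, and retinoic acid, Wnt signals and CDX factors open them. CTCF binds between several Hox genes and is known there as a boundary between silent and active parts of a cluster.

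The 4 lists held between 51823 and 66703 peaks, and the second library of each genotype had the higher enrichment, with median summit folds over local background at common regions of 7.74 (WT) and 7.59 (K20R) beside 5.86 and 5.73. Read totals were not used here. The level of a promoter is therefore given as a percentile: the strongest peak within 1000 bp of the annotated gene start, by its −log10 p, ranked among all protein-coding genes with a promoter peak in the same library, so that 0 is the weakest and 100 the strongest. With 2 libraries a genotype the smallest two-sided exact permutation p is 0.333, which cannot pass a threshold of 0.05, and no other test was run on single differences. A gene is called lower or higher in K20R where both K20R values lie below or above both WT values. The libraries of a genotype are biological replicates per the study's methods; whether they came from separate differentiations or colonies is not given in the labels. Day 4 markers were not the same in the 2 genotypes: of 3 endoderm markers all 3 were lower in K20R (Gata6 at percentiles 43.8 and 54.4 in WT against 10.8 and 16.1 in K20R), and of the 4 pluripotency markers with a promoter peak in every library 3 were higher and none lower (Pou5f1 at 31.7 and 32.7 against 51.3 and 56.9). The remaining one, Esrrb, stood at 5.71 and 7.08 in WT; of the K20R libraries replicate 2 held its peak, at 2.03, and replicate 1 held none. Of 6 primitive streak and mesoderm markers 2 were lower (T and Mixl1) and 2 higher (Eomes and Mesp1), Tbx6 overlapped and Msgn1 had no promoter peak. Of 3 neuroectoderm markers none was lower and 1, Pax6, was higher. Read at the start of any protein-coding transcript instead, Pax6 was lower. Of 6 fibroblast genes, which would mark feeder cells, 1 was lower (Thy1) and 1 higher (Col1a2), Postn had no promoter peak, and Dcn had one at 18.0 and 29.8 in WT and at 2.50 in K20R replicate 2 alone. In whole embryoid bodies, fewer cells with an open site and a less open site in each cell cannot be told apart, and the part of these shifts in the Hox values was not tested.

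Hox promoters were open in most cases and weak in nearly all. A promoter peak was present for 32 and 34 of the 38 genes in WT and for 33 and 33 in K20R, so the mean number did not differ between the genotypes (difference 0, SD between replicates 1), and 32 genes had one in all 4 libraries. The median percentile of these 32 was 8.24 and 7.29 in WT against 8.15 and 9.37 in K20R, where the median over all genes was between 51.2 and 52.0. For 28 of the 32, every library gave a percentile below 25. The rank reflects both the pileup and the local background: the median summit pileup at the Hox promoters was 37 and 47.5 reads in the WT libraries and 36 and 59 in the K20R ones, where all promoters had 73, 108, 79 and 123 in the same order. The local background at the Hox promoters was 8.95, 11.4, 9.62 and 12.6 in that order, above the 7.77, 9.95, 8.64 and 11.5 of all promoters. In every library the Hox promoters thus had more background around them and fewer reads at the summit.

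**Figure D1:**
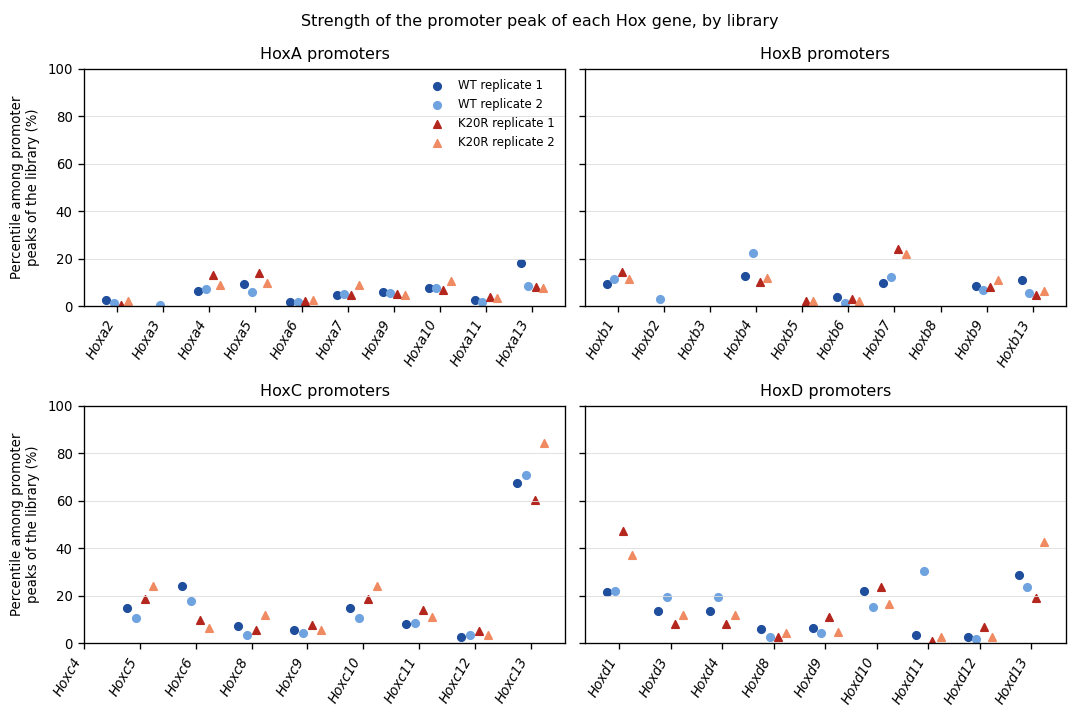
Percentile of the promoter peak (y axis, 0 to 100%) of each listed Hox gene (x axis, by cluster and paralog group), with circles for the 2 WT and triangles for the 2 K20R libraries; a missing symbol means no promoter peak in that library. For 28 of the 32 genes with a peak in every library all points lie under 25, Hoxc13 lies between 60.5 and 84.6 in every library, and Hoxd1 and Hoxb7 show the widest gap with K20R on top.

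Between genotypes, 7 of the 32 promoters were lower in K20R (21.9%) and 11 were higher (34.4%), where 24.5% and 22.7% of the 13879 genes so marked in all 4 libraries were lower and higher. Hoxd3 with Hoxd4 and Hoxc5 with Hoxc10 each read 1 region, and counted once they leave 6 lower (20.0%) and 10 higher (33.3%) of 30 promoters. At the gene start, the share of lower Hox promoters is near that background, and the share of higher ones is above it. That excess rests on WT replicate 2: without it 37.5% of the Hox promoters were higher, against 37.0% of all genes counted in the same way, while without any other library it was between 46.9% and 59.4%, against 34.8% to 35.5%. The median difference, mean of K20R minus mean of WT, was 1.56 percentile points over the Hox genes (SD of the median between replicates 0.769) and -0.235 points over all genes. The gene start in the annotation was over 1000 bp from any start of a protein-coding transcript for 7 of the 38 genes, and 4 promoters drew on different regions in different libraries. The promoter was therefore read in 3 ways: the gene start, the start of any protein-coding transcript, and the strongest region that had a peak in all 4 libraries. At any coding start, 3 of 35 Hox promoters were lower and 11 higher, against 24.0% and 22.9% of all genes. With the region common to all libraries, 5 of 31 were lower and 13 higher, against 23.1% and 24.0%. The share of lower ones was thus below the background in both. In all 3 readings, Hoxb4, Hoxd3 and Hoxd11 were lower, which is 3 of the 7, and Hoxa4, Hoxa5, Hoxa6, Hoxa11, Hoxb1, Hoxb7, Hoxc10, Hoxc11, Hoxc12 and Hoxd1 were higher, which is 10 of the 11.

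Of the 7 anterior genes, 4 were marked by a promoter peak in every library, 1 was lower and 2 were higher. Hoxd1, which acts in the earliest Hox phase and in sensory neurons, lies last in its cluster and had the largest difference of all members. Its percentiles were 21.7 and 22.0 in WT against 47.5 and 37.2 in K20R, a difference of 20.5 points. The summit pileups were 48 and 72 reads in WT against 66 and 93 in K20R, so that reads overlapped between the genotypes, with the second library of each the higher one, while ranks did not. The sequence of its promoter is shown because it is the member whose rank moved most; it is CpG-rich, with 69.7% G and C and 29 CpG in 300 bases, and it lies inside the region chr2:74762522-74764044. Below it stands the promoter of Hoxb4, which moved the other way and holds 58.0% G and C and 14 CpG. Both are from RefSeq on GRCm38.p6 (mm10), from 250 bases before to 50 after the start, on the transcribed strand (+ for both), with CpG in capitals.
Hoxd1 chr2:74762730-74763029: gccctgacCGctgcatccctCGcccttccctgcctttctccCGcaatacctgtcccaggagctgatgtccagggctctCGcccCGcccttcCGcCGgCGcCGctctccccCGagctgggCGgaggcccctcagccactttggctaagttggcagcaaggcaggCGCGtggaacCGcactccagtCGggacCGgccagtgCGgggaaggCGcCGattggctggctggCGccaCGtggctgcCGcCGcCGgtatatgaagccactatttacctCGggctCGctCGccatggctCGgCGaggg
Hoxb4 chr11:96318017-96318316: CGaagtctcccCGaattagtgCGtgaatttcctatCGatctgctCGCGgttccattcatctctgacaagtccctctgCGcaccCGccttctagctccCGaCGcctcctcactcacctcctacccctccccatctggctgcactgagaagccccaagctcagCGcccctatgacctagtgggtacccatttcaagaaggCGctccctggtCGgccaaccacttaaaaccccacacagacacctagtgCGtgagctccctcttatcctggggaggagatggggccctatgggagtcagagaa

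Hoxb1, a gene of the early hindbrain, was called higher with a narrow margin, at 9.43 and 11.5 in WT against 14.4 and 11.5 in K20R. Its upper WT and lower K20R values are the same to the digits shown. Hoxd3 was at 13.4 and 19.5 in WT against 8.27 and 12 in K20R, a difference of -6.32 points; its gene start lies beside the one annotated for Hoxd4, so that both genes read the same region and count as 1 observation. Hoxa2, a gene of the hindbrain and second branchial arch, was the weakest promoter of its cluster with a peak in every library, at 2.74 and 1.24 in WT against 0.358 and 2.13 in K20R, which overlap; the peak of K20R replicate 1 had a q above 0.05. The other anterior genes had few peaks at the gene start. At the gene start, Hoxa3 had one in WT replicate 2 alone, at percentile 0.280 and with a q above 0.05, and so did Hoxb2, at 2.96. In the other 3 libraries no peak number was missing between the neighbouring deposited peaks, so that no called peak had been taken out there. At any coding start, however, Hoxa3 stood at 9.97 and 15.5 in WT against 15.2 and 14.9 in K20R, which overlap. Hoxb2 stood there at 12.8 and 11.6 in K20R and at 3.92 in WT replicate 2, without a peak in WT replicate 1. Hoxb3 had none in any library at its gene start, with 1 number missing there in WT replicate 1, while at other coding starts it stood at 0.770 and 1.85 in WT against 3.18 and 3.56 in K20R, which do not overlap.

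Of the 15 central genes, 12 were marked in every library, 3 were lower and 5 were higher. Hoxb7 was at 9.81 and 12.4 in WT against 24.1 and 21.7 in K20R, higher by 11.8 points. Its pileups were 40 and 62 reads in WT against 64 and 95 in K20R, and it was the strongest promoter of HoxB by mean percentile (17.0). In HoxA, 3 neighbouring central genes were higher: Hoxa4 at 6.21 and 7.08 against 13.1 and 9.07, Hoxa5, which acts in the lung and the neck-thorax transition, at 9.28 and 6.03 against 13.8 and 9.66, and Hoxa6 at 1.58 and 1.72 against 2.29 and 2.70. The last of these differences is 0.85 points at the bottom of the scale. Hoxa4 used different regions in different libraries, and with the region common to all it was again higher, at 3.72 and 1.13 in WT against 11.1 and 6.51 in K20R. Hoxc5 was higher, at 14.9 and 10.5 against 18.5 and 24.0, but its annotated start is 46372 bp from the nearest start of a protein-coding transcript and lies in the peak of Hoxc10, and at its coding starts the genotypes overlapped, with 10.2 and 4.64 in WT against 3.66 and 13.7 in K20R.

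The central genes that were lower were Hoxb4, Hoxc6 and Hoxd4. Hoxb4, known for its role in blood stem cells, was at 12.6 and 22.4 in WT against 10.0 and 11.8 in K20R, a difference of -6.59 points, and its WT libraries differed from each other by more than WT replicate 1 differed from either K20R library. Hoxc6 was at 24.2 and 17.9 in WT against 9.81 and 6.41 in K20R, a difference of -12.9 points, with pileups of 59 and 79 reads against 42 and 50. The WT and K20R values of Hoxc6 lie well apart, but this peak is at the annotated gene start, 11316 bp from the nearest coding start. At its coding starts Hoxc6 stood at 14.8 in WT replicate 2, without a peak in WT replicate 1, and at 0.417 and 0.769 in K20R. Hoxd4 shared the values of Hoxd3, and at its own coding starts it stood at 10.3 and 12 in WT against 5.59 and 10.4 in K20R, which overlap.

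Hoxb5 was the only Hox gene whose promoter peak was present in both K20R libraries and absent from both WT libraries, at 2.26 and 2.11, with pileups of 29 and 39 reads. In both WT lists no peak number was missing at this place. Hoxb8, a gene of the central trunk, and Hoxc4 had no peak within 1000 bp of the gene start in any library, and at Hoxc4 1 number was missing in K20R replicate 1. At other coding starts they stood at 0.716 and 2.94 in WT against 3.22 and 2.52 in K20R for Hoxb8, and at 8.68 and 13.8 in WT against 16.1 and 7.17 in K20R for Hoxc4, and both overlapped between genotypes. Hoxb6 was the weakest HoxB promoter with a peak in every library, at 3.78 and 1.37 in WT against 2.93 and 2.34 in K20R. Hoxa7 and Hoxc8 also overlapped between the genotypes. With the region common to all libraries, however, Hoxa7 was higher, at 2.32 and 2.37 in WT against 2.84 and 6.30 in K20R.

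All 16 posterior genes were marked in every library; 3 were lower and 4 higher. Hoxc13, known for its role in hair and nails, was the strongest Hox promoter in every library, at 67.7 and 70.8 in WT against 60.5 and 84.6 in K20R, and the genotypes overlapped. Its pileups were 96 and 146 reads in WT against 100 and 206 in K20R. In HoxC the higher genes were Hoxc10, a gene of the lumbar region and hindlimb, with the values given for Hoxc5, Hoxc11 at 8.15 and 8.52 against 14.1 and 11.1, and Hoxc12 at 2.46 and 3.64 against 5.16 and 3.68. Hoxc12 was the weakest promoter of HoxC and its upper WT and lower K20R values are close. In HoxA, Hoxa11, which patterns the forearm and the uterus, was higher, at 2.70 and 1.79 in WT against 3.97 and 3.50 in K20R.

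Hoxa13, a gene of digits and genitalia, was at 18.1 and 8.24 in WT against 8.04 and 7.68 in K20R. This was the strongest HoxA promoter on average, and its lower call rests on WT replicate 1, since the other WT value is within 1 point of both K20R values, and it was lost in both other readings of the promoter. Hoxa9, a gene of blood progenitors, was at 6.05 and 5.39 against 5.04 and 4.48, a difference of -0.961 points, and the call was lost in both other readings of the promoter. Hoxd11 was at 3.67 and 30.4 in WT against 0.814 and 2.83 in K20R, with the peaks near its start in different regions across the libraries; with the region common to all libraries its percentiles were 36.8 and 27.6 in WT against 20.3 and 14.3 in K20R, which do not overlap either. Hoxd13 was strong for a Hox gene, at 28.6 and 23.6 in WT against 19.2 and 42.6 in K20R, and Hoxd12 was the weakest promoter of HoxD, at 2.76 and 1.75 in WT against 6.92 and 2.43 in K20R; both overlapped. The other posterior genes, Hoxa10, Hoxb9, Hoxb13, Hoxc9, Hoxd9 and Hoxd10, and the central gene Hoxd8 overlapped between the genotypes as well. Of these, Hoxb9 was higher with the region common to all libraries, at 5.66 and 3.66 in WT against 6.01 and 8.25 in K20R.

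By cluster, HoxA had 2 lower and 4 higher of 9 promoters with a peak in all libraries, HoxB 1 and 2 of 6, HoxC 1 and 4 of 8, and HoxD 3 and 1 of 9. With shared regions counted once, HoxC had 1 and 3 of 7 and HoxD 2 and 1 of 8. HoxD was the only cluster with more lower than higher promoters. Counted once, 25% of the HoxD promoters were lower, which is near the 24.5% of all genes. The higher ones were 12.5%, or 1 promoter of 8, against 22.7% of all genes. The contrast between clusters thus rests on very few promoters and was not tested. Of other protein-coding genes that start in the windows, 1 of 3 with a peak in every library was lower, 5730596B20Rik, at 9.70 and 6.67 in WT against 5.28 and 5.95 in K20R. Evx2, the homeobox gene beside HoxD, overlapped at 10.0 and 11.7 against 12.4 and 8.41.

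Accessible regions stood close together in the clusters. The 166 regions of the windows, peaks of the 4 lists merged where they shared at least 1 bp, amount to 188 regions per Mb against 29.5 over the genome, and inside the gene clusters to 282 per Mb. Peaks covered 19.5% and 20.8% of the cluster sequence in WT and 18.1% and 21% in K20R, against 1.64% and 1.88% in WT and 1.46% and 1.71% in K20R over the genome. Of the 166 regions, 105 (63.3%) were common to all 4 libraries, where 47.9% of all regions were. On the maps of the peaks most sites recur in each library.

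**Figure D2:**
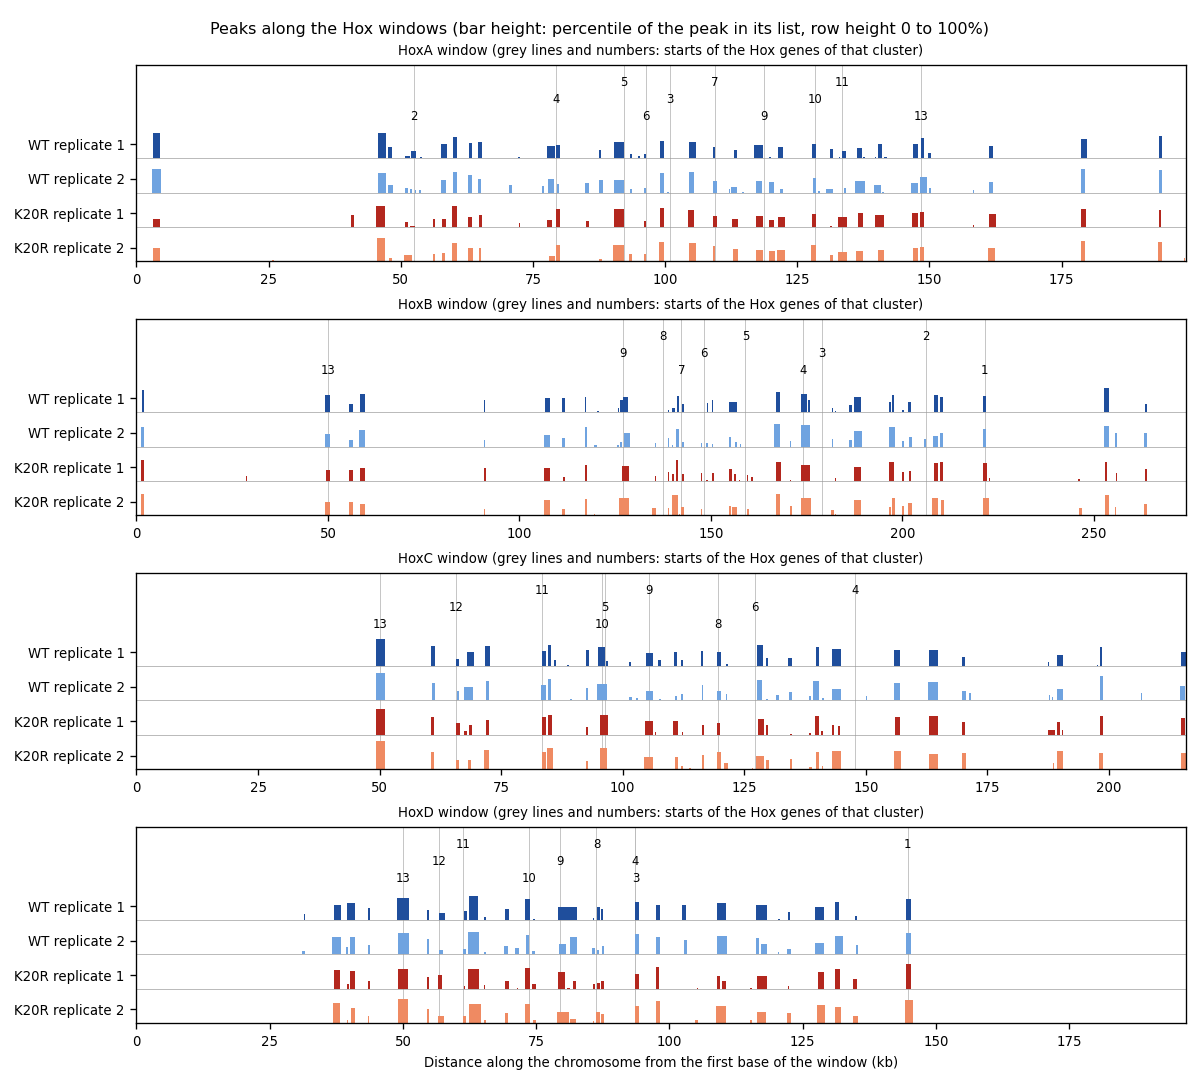
Peaks of each library along the 4 Hox windows: the x axis is the distance from the first base of the window in kb, each row is a library, and the height of a bar is the percentile of the peak in its own list; grey lines mark starts of listed Hox genes. Most bars recur in all 4 rows, and the bar near 4 kb of the HoxA window is tall in WT and short in K20R.

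Regions present in 1 genotype alone were few. A peak in both WT and neither K20R library was found for 6 of the 166 regions (3.61%), against 10.4% of all regions, and a peak in both K20R and neither WT library also for 6 (3.61%), against 3.1% of all. The first share is below the background and the second is near it. The WT-restricted regions were in HoxD (3), HoxA, HoxB and HoxC (1 each), and the K20R-restricted ones in HoxB (3), HoxD (2) and HoxA (1).

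The strongest WT-restricted region was chr2:74720574-74721505, in an intron of Hoxd3 and Hoxd4 as annotated, with its summit 9306 bp downstream of the Hoxd4 gene start. The region also lies within 1000 bp upstream of the RefSeq start of Hoxd4, whose promoter stretch is chr2:74721728-74722027. Peaks of the region stood at the 52.3 and 47.8 percentiles of the WT lists, with pileups of 28 and 33 reads. No peak number was missing here in either K20R list. The others were weaker, between the 4.87 and 23.8 percentiles: chr2:74738643-74738979 in an intron of Hoxd3, chr2:74649444-74650022 before Hoxd13, chr11:96330306-96331048 in an intron of Hoxb3, chr15:102978371-102979054 in an intron of Hoxc5 and Hoxc9, and chr6:52262072-52262750, 1708 bp upstream of Hoxa13. For 3 of the 6 no called peak can have been taken out of either K20R list, and for the other 3, between 1 and 3 numbers were missing nearby in a K20R list.

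The strongest K20R-restricted region was chr6:52168508-52168951, in an exon of the antisense transcript Hoxaas2 3942 bp upstream of Hoxa2, at the 27.7 and 25.3 percentiles of the K20R lists and with pileups of 33 and 44 reads. A pair lay in exons of Hoxb5: chr11:96303710-96304234, which is the promoter peak described above, at 22.1 and 21.2, and chr11:96304881-96305212, at 13.0 and 0.779. The remaining ones were chr2:74723150-74723661 and chr2:74733436-74733706, in introns of Hoxd3, and chr11:96390200-96391076, beyond Hoxb1, all at percentile 26.5 or less of their lists. In 5 of the 6 no number was missing in either WT list, and the exception is the region beyond Hoxb1. Introns annotated to Hoxd3 thus held sites restricted to either genotype.

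Among the 105 common regions, ranked by −log10 p among the 38527 common regions of the genome, 15 were lower in K20R (14.3%) and 37 were higher (35.2%), where 25.5% and 29.2% of all common regions were. The Hox windows thus held fewer lower and more higher regions than the genome as a whole, and inside the clusters alone the counts were 13 and 31 of 89. The medians by library were 29.7 and 20.0 in WT against 29.5 and 27.9 in K20R, so that WT replicate 2 was the low one. Without it, 34 regions (32.4%) were lower and 47 (44.8%) higher, against 37.5% and 41.2% of all regions counted in the same way.

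**Figure D3:**
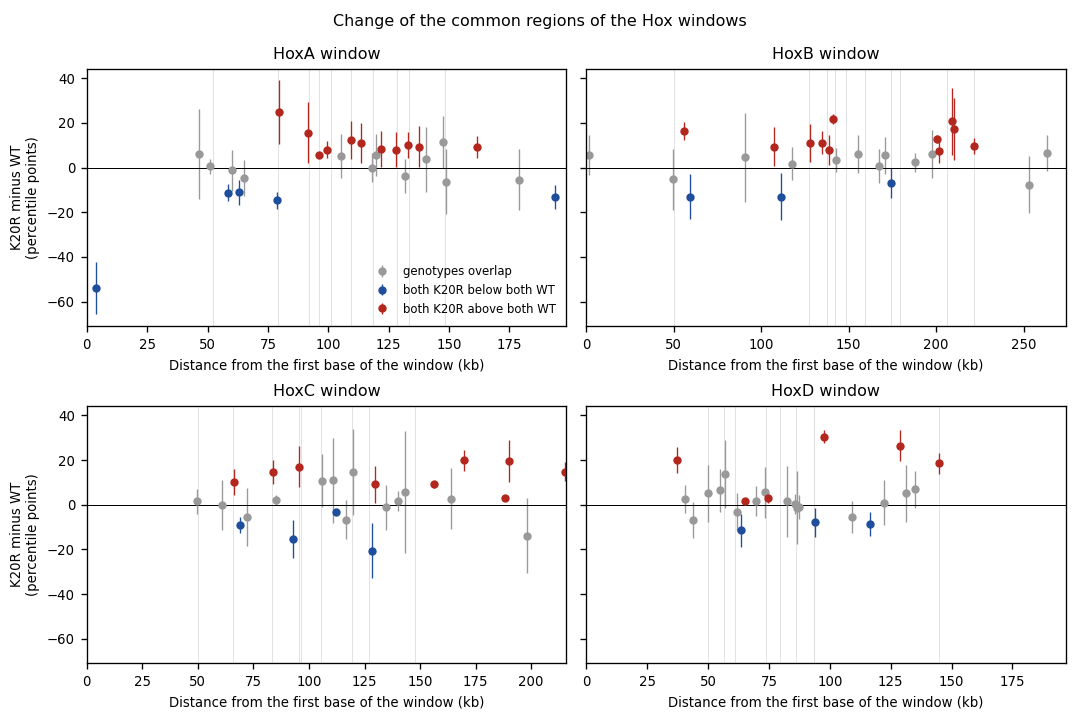
Change of each common region along the 4 windows: the y axis is the mean K20R minus the mean WT percentile, in points, with bars from the smallest to the largest of the 4 differences between a K20R and a WT library, and the x axis is the distance from the first base of the window in kb. Red marks regions with both K20R above both WT libraries and blue the reverse; the point at -53.9 near the left edge of HoxA is far below all others, and the highest, at 30.4, is in HoxD.

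The largest difference in the windows was at chr6:52115384-52117006, in intergenic sequence 48799 bp beyond the start of Hoxa2 on the anterior side of HoxA, outside the cluster. Its percentiles among common regions were 77.9 and 67.9 in WT against 12.2 and 25.8 in K20R, and its pileups 68 and 84 reads in WT against 15 and 30 in K20R. Relative to the median common region of each library the pileup was 1.79 and 1.5 in WT against 0.385 and 0.517 in K20R, a log2 difference of -1.88. It was thus lower in K20R in reads as well as in rank. The next largest difference in this direction, of -20.6 points, was at the Hoxc6 peak at chr15:102998443-103000202, with 60.03 and 49.0 in WT against 40.6 and 27.1 in K20R. Inside Hoxa4, chr6:52190052-52191619 was lower, at 21.5 and 23.4 in WT against 10.4 and 5.02 in K20R, while the region just upstream of that gene was higher. The strongest region at Hoxd11, chr2:74680482-74682893, was lower as well, at 71.4 and 63.2 in WT against 59.2 and 52.3 in K20R.

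The largest difference in the other direction, of 30.4 points, was at chr2:74715827-74716584, 4052 bp downstream of the gene start of Hoxd4, in an exon of the antisense transcript Hoxd3os1. It stood at 33.0 and 37.3 in WT against 66.3 and 64.9 in K20R, with relative pileups of 0.816 and 0.893 against 1.44 and 1.45, a log2 difference of 0.76. It lies between the promoter peak of Hoxd3 and Hoxd4 and the WT-restricted site named above, and that promoter peak was lower in K20R. Further regions were higher at chr2:74745612-74747405 in an exon of Hoxd3 (23.3 and 15.1 against 42.9 and 48.4), at chr6:52191847-52192491, 391 bp upstream of Hoxa4 (25.9 and 8.55 against 47.5 and 36.5), at chr11:96284155-96286331, which is the Hoxb7 promoter peak (37.6 and 38.9 against 61.4 and 58.3), and at chr2:74654977-74656710 in an exon of Evx2 (30.7 and 37.0 against 51.2 and 56.6). In each of these the genotypes did not overlap. The highest common region of a window by mean percentile was the Hoxc13 promoter in HoxC, the Hoxd1 promoter in HoxD, chr11:96396875-96398173 beyond Hoxb1 in HoxB (73.2 and 51.7 against 52.9 and 56.6), and, of those reported here, chr6:52291015-52292139 upstream of Hoxa13 in HoxA (50.3 and 69.6 against 50.6 and 58.4); the last 2 overlapped.

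Stretches of 201 bases around the summit are shown for the 4 regions on which these statements turn: the largest difference in each direction and the strongest region restricted to each genotype (RefSeq, GRCm38.p6, + strand, CpG in capitals). The region lower in K20R holds 42.8% G and C and 2 CpG, while the higher one holds 64.2% and 13 CpG and the K20R-restricted one 70.6% and 17. The WT-restricted one holds 56.7% and 5. These are 4 chosen sequences and carry no test.
Lower in K20R chr6:52115932-52116132: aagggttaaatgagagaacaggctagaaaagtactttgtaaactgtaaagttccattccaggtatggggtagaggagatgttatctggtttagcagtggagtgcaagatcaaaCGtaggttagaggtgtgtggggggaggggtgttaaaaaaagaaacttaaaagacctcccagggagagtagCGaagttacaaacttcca
Higher in K20R chr2:74715881-74716081: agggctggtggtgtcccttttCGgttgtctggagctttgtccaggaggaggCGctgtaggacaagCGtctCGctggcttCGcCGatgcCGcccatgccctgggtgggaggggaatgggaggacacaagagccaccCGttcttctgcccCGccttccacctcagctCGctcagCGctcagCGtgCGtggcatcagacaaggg
WT-restricted chr2:74721135-74721335: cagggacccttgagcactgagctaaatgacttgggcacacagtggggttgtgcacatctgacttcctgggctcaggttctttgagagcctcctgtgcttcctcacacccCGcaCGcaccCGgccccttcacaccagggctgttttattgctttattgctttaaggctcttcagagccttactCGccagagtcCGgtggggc
K20R-restricted chr6:52168673-52168873: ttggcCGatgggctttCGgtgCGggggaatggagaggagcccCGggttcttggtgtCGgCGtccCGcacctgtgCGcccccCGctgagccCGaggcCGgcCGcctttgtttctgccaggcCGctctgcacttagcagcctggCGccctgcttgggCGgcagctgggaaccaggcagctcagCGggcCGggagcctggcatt

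CTCF, the mutated protein, was followed through its binding motif. The core consensus of CTCF, of 12 letters, read on both strands, occurred 3 times in the 4 windows and once inside a cluster, between Hoxb13 and Hoxb9 at chr11:96265875-96265886, and no library had a peak over any of the 3. A match counts as under a peak where all its bases lie inside the peak. Over the genome, 33.1% and 39.4% of 13119 matches lay under a peak in WT and 31.5% and 37.3% in K20R. No summit stretch of the 166 regions held the consensus, where 6.02% of all 80380 did. This says only that these letters are not there. With at most 1 letter off the consensus there were 75 sites in the windows, the exact ones included. Of these, 12 and 14 were under a peak in WT and 15 and 14 in K20R. That is between 16.0% and 20.0%, against 7.60% to 9.76% of 221785 such sites over the genome. Peaks covered 12.9% and 14.0% of the window sequence in WT and 12.1% and 13.9% in K20R, but only 1.46% to 1.88% of the genome. In proportion to that coverage, the share under a peak was higher over the genome than in the windows.

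Inside the clusters there were 34 such sites, with 10 and 10 under a peak in WT and 12 and 12 in K20R, 9 of them in all 4 libraries. A site in Hoxa11, chr6:52243095-52243106, was under a peak in WT replicate 2 alone. Another in Hoxa11, chr6:52245497-52245508, was under a peak in every library but WT replicate 2. The others under a peak were a pair covered whole in both K20R and neither WT library. They lay 2957 bp upstream of Hoxb8 and, inside Hoxc6 as annotated, 9135 bp upstream of Hoxc4. At the Hoxb8 site, WT had a peak in the same region that reached none of the 12 bases. The region, chr11:96278821-96279971, was among the weakest of the common regions in WT, at 0.0779 and 1.84. It stood at 16.2 and 7.75 in K20R. These values are from peaks at different places, since K20R replicate 1 had a separate peak over the site, which gave its value. Its other peak there, which overlaps the WT peaks, stood at percentile 17.4 of its list, against 0.611 and 12.1 in the WT lists. At the Hoxc4 site a peak of WT replicate 2 covered 11 of the 12 bases, so that its count as uncovered there rests on 1 base at a peak edge, while WT replicate 1 had no peak over any of the 12; that peak was at percentile 16.0 of its list, above the K20R peaks at 4.90 and 9.08.

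The sites below were chosen after their values were seen. They are the 1 exact match inside a cluster, the sites upstream of Hoxb8 and Hoxc4, and 4 that were covered in all 4 libraries. These 4 lie in the gene body or promoter of Hoxa7 and Hoxa10, between Hoxd13 and Hoxd12, and inside Hoxc6 as annotated. The last of them is between the gene starts of Hoxc6 and Hoxc4. The Hoxa7 and Hoxd12 sites carry the same 12 letters. Capitals mark the match or near match, given on the strand that reads as the consensus, with 15 bases on each side (RefSeq, GRCm38.p6).
Hoxb13-Hoxb9 exact, chr11:96265875-96265886 (−): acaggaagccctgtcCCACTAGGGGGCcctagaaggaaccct
Hoxb8 upstream, chr11:96278948-96278959 (+): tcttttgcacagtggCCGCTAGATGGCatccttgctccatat
Hoxc4 upstream, chr15:103009799-103009810 (+): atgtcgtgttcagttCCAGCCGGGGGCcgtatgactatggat
Hoxa7, chr6:52221809-52221820 (−): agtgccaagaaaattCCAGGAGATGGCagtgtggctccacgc
Hoxd12, chr2:74673178-74673189 (−): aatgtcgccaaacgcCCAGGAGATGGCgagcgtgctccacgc
Hoxa10, chr6:52240541-52240552 (−): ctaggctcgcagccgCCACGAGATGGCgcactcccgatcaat
Hoxc6-Hoxc4, chr15:103011419-103011430 (+): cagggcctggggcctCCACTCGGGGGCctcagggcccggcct
The region over the site between the gene starts of Hoxc6 and Hoxc4 stood at 46.9 and 45.1 in WT against 51.5 and 44.1 in K20R of the common regions, which overlap, with the summit 136 bp from the match in each library. The region at Hoxa10 was higher in K20R with a narrow margin, at 30.2 and 24.9 against 30.6 and 40.6, with summits between 22 and 42 bp away. The one at Hoxa7 was higher as well, at 18.1 and 15.3 against 21.8 and 36.1. Read at the gene start on the scale of promoters, both genes overlapped between the genotypes.

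Retinoic acid response elements, the direct repeats through which retinoic acid receptors act on Hox clusters, were searched with 5 bases between the half-sites (DR5) and with 2 (DR2). The windows held 9 DR5 matches, 4 of them inside the clusters, and 2 of the 166 regions (1.20%) had one within 100 bp of the summit, against 0.103% of all regions. A match in HoxA, upstream of Hoxa2 in an intron annotated to Hoxa3, lay under a peak in all 4 libraries, in the region chr6:52175167-52176028. This region was lower in K20R, at 33.5 and 37.0 in WT against 20.3 and 27.9 in K20R of the common regions, with pileups of 44 and 71 reads against 35 and 63. A match in HoxB, inside Hoxb3 as annotated, has the same 17 letters and lay under a peak in WT replicate 2 and K20R replicate 1. Another in HoxC, beyond Hoxc4, lay under a peak in WT replicate 2 alone. At both the HoxB and the HoxC match, the summit was between 863 and 874 bp away. The 3 are shown on the matching strand with the repeat and its spacer in capitals.
HoxA DR5, chr6:52175533-52175549 (−): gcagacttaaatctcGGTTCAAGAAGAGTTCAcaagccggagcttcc
HoxB DR5, chr11:96341236-96341252 (+): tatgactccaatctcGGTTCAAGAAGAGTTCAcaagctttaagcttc
HoxC DR5, chr15:103061714-103061730 (+): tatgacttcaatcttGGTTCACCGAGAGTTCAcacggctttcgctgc
Of 5 DR2 matches, 1 lay under a peak, inside Hoxa10 as annotated, in K20R replicate 2 alone.

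The CDX site TTTATGG was found within 100 bp of the summit in 7 of the 166 regions (4.22%) and in 1.53% of all regions, and the PBX-HOX site TGATTNAT, at which HOX proteins bind together with PBX, in 1 (0.602%) and 1.56%, both read on either strand. The summit stretches had a median of 58.7% G and C, against 53.2% over all regions. Of the 37 Hox regions that were higher, 1 held the CDX site and none the PBX-HOX site, and of the 15 that were lower, 2 and 0.

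The genes that act on the Hox clusters or with their products were read on the same promoter scale. Of 35 with a peak in all libraries, among CDX factors, TALE partners, Polycomb and Trithorax proteins, ParaHox genes and window neighbours, 8 were lower (22.9%) and 4 higher (11.4%), against the 24.5% and 22.7% given above. Of the CDX factors, which bind Hox regulatory DNA, Cdx2 was lower, at 30.5 and 26.7 in WT against 22.7 and 24.1 in K20R, Cdx1 overlapped and Cdx4 had no promoter peak. The TALE homeodomain proteins bind DNA beside HOX proteins, and 4 of the 9 were lower and 2 higher. Meis3 showed the largest difference among them, with 86.5 and 76.4 in WT against 49.5 and 49.6 in K20R, followed by Meis1 with 45.8 and 63.1 against 36.4 and 29.0. Pbx2 was at 23.7 and 20.2 against 6.50 and 9.59, and Pknox2 at 40.2 and 37.3 against 34.0 and 25.4. Pbx4 was higher, at 97.8 and 95.4 against 99.9 and 99.8, and so was Meis2, at 23.8 and 20.9 against 28.1 and 29.4.

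Of the 14 Polycomb genes, whose products keep Hox clusters silent, 1 was lower and 2 were higher. The higher ones were Cbx7, at 4.76 and 10.4 in WT against 33.9 and 41.6 in K20R, and Ezh1, a Polycomb histone methyltransferase, at 20.9 and 16.3 against 27.6 and 38. Bmi1 was lower, at 7.31 and 7.14 against 4.49 and 5.27. For Cbx7 the call was lost at the start of any coding transcript. Of the Trithorax genes, which oppose Polycomb, Men1 was lower, at 53.2 and 50.8 against 41.7 and 50.5, with 4 of 5 measured in every library, and the call was lost with the region common to all libraries. The ParaHox genes Gsx1, Gsx2 and Pdx1, sisters of the Hox clusters, all overlapped between the genotypes.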

How the data were processed

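ATAC-seq peak lists of 2 WT and 2 CTCF-K20R libraries of day 4 embryoid bodies were used, grouped by the sample labels. Per the labels and the study's methods, the authors trimmed reads with Trim Galore, aligned them to mm10 with Bowtie2, removed low-quality, duplicate and blacklisted reads and called peaks with MACS2. For each peak the authors deposited a ratio, namely how many fold the summit exceeds the local background. They also deposited its −log10 p and its −log10 q, both taken at that summit. The lists hold between 50.5% and 60.8% of their peak numbers, so called peaks were removed by a rule not given in the sources used here; absences were set beside missing numbers. Although default calling is stated, peaks with p-values as high as 0.01 were kept, and the share with a q above 0.05 ranges from 2.18% to 5.05% over the libraries.

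Gene starts came from GENCODE M21, and sequences from RefSeq GRCm38.p6, the same build. Summit pileups were recovered from fold and p, as whole numbers for at least 99.97% of the peaks in each list. The fold was taken to hold a pseudocount in both pileup and background. Relative depth was between 0.976 and 1.15 of that of WT replicate 1. It was estimated from a low quantile of the local background, divided by the shortest peak length. Percentiles rank −log10 p within a library, with no pseudocount or other filter. Peaks were merged at 1 bp. Motifs were read on both strands. Steps were tested on simulated data, using Python 3.11.15, numpy 2.4.6, pandas 2.3.3 and scipy 1.17.1. Reads were not analysed here, so no count test was possible, and the depth of single values is given as pileups.

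The members, lists and rules were chosen with earlier results of these data known. Named were Hox genes present in part of the libraries, called lower or higher, or highest or lowest in a cluster; list genes that were called; every restricted region; the highest common region of a window; and sites of the CTCF consensus. Other genes, regions and the near-consensus sites were named after their values were seen. Of the 39 Hox genes of the 4 clusters 1 is not reported here, and its regions enter the counts only. Alternatives were a −log10 q of at least 5, equal numbers of peaks, leaving out each replicate, a 500 bp promoter, any transcript start, other ranks, a replicate block, 50% reciprocal overlap, clusters without flanks and 1 mismatch in the consensus; the reading by the region common to all libraries, and all alternatives for common regions and regulators, were chosen after seeing the data.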

Additional observations from a re-analysis of the deposited data

How the results depend on the processing

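With 2 libraries a genotype the exact permutation test cannot pass its threshold, and counts of promoters or regions whose genotypes do not overlap grow by construction once a library is left out, over all genes too. The difference in Hox promoters with a peak, K20R minus WT, was 0 and became 3.5 at a −log10 q of at least 5, 3 with equal numbers of peaks and 2 at any coding start, and was between -1 and 1 when a library was left out. The 7 lower promoters became 2 at that q and 3 at any coding start, and were 7 to 12 with a library left out (11 without WT replicate 2, 12 without K20R replicate 2). The 11 higher ones were 12 to 19 (17 without K20R replicate 1, 19 without WT replicate 1). The median difference of 1.56 points became 2.73 at that q, 3.42 with equal numbers of peaks and 4.27 ranked in the whole list, and was 0.447 to 1.73 with a library left out, the lowest without K20R replicate 2. The 6 WT-restricted regions became 3 at that q, 2 with equal numbers of peaks and 12 at 50% reciprocal overlap, and were 10 to 20 with any library left out (10 without K20R replicate 1, 13 without K20R replicate 2, 20 without WT replicate 1, 15 without WT replicate 2). The 6 K20R-restricted ones became 13 with equal numbers of peaks and were 8 to 12 (12 without K20R replicate 1, 10 without K20R replicate 2, 11 without WT replicate 2). The difference of 0 in CTCF consensus sites under a peak became 1.5 with 1 mismatch and was 0 with any library left out. The 15 lower and 37 higher common regions were 19 to 34 and 47 to 61 (lower, 24 without K20R replicate 1, 25 without K20R replicate 2, 34 without WT replicate 2; higher, 61 without WT replicate 1), and the 8 lower and 4 higher regulators and partners were 11 to 16 and 10 with a library left out (lower, 13 without K20R replicate 1, 14 without K20R replicate 2, 16 without WT replicate 2). With a library left out, 21.9% to 37.5% of Hox promoters were lower and 37.5% to 59.4% higher. The shares of all genes were 36.0% to 38.9% and 34.8% to 37.0%. Of regulators and partners, 31.4% to 45.7% were lower and 28.6% higher. Common regions were lower in 18.1% to 32.4% and higher in 44.8% to 58.1%, against 35.4% to 37.5% and 40.0% to 42.0% of all. For restricted regions and the q and equal-number settings no such shares are given. The cause of the shifts in these counts, beyond the smaller samples, was not tested.

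Libraries of the 2 genotypes share only a replicate number: deviations of same-numbered libraries had a Pearson r of 0.0303 across 13879 genes, which are not replicates. The replicate block counts genes that differ the same way in both numbers. With it, 7 Hox promoters were lower and 16 higher (21.9% and 50%, against 32.0% and 29.5% of all genes). Of the common regions, 16 were lower and 48 higher (15.2% and 45.7%, against 31.3% and 36.1% of all common regions). Of the regulators and partners, 11 were lower and 5 higher (31.4% and 14.3%, against the same 32.0% and 29.5% of all genes).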
